A study of Mus musculus with 29 samples.

Results

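The binding of 3 transcription factors was described at 41 genes of the Wnt pathway, out of 22380 protein-coding genes in the mouse annotation. The 41 genes were all those named Wnt or Fzd with a number (19 Wnt ligands and 10 Frizzled receptors), together with the co-receptors Lrp5 and Lrp6, the R-spondin receptors Lgr4, Lgr5 and Lgr6, the intracellular regulators Axin1, Axin2 and Nkd1, and the secreted regulators Dkk1, Dkk3, Sfrp1 and Sfrp2. A peak was counted for a gene when its summit, the position of highest ChIP signal, lay in the gene body or within 20 kb of it. The gene symbols, not any measured value, chose the genes.

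The peaks came from ChIP-seq, in which DNA bound by a factor is precipitated with an antibody and sequenced, on embryoid bodies (EBs), aggregates of differentiating mouse embryonic stem cells that hold several cell types at once. The lines carried a doxycycline (dox)-inducible cassette, placed in A2Lox stem cells and ending in a nuclear Venus reporter, that encoded Atoh1 alone (iAtoh1), Pou4f3 alone (iPou4f3), Gfi1 with Atoh1 (iG+A), Gfi1 with Pou4f3 (iG+P), Pou4f3 with Atoh1 (iP+A) or the 3 together (iGPA), and all EBs used here had received 2 µg/ml of dox for 48 h, from day 4 to day 6. Atoh1 was precipitated through a C-terminal FLAG tag, Pou4f3 through an N-terminal MYC tag and Gfi1 through an antibody to the protein itself. There were 17 ChIP libraries and 12 input libraries, 2 replicate libraries for each line and factor, made from different clones, but 1 for Gfi1. No ChIP of uninduced EBs was analysed here. All factors were overexpressed from the same dox-inducible promoter, so the lists describe binding by overexpressed proteins (tagged Atoh1 and Pou4f3, untagged Gfi1) in mixed EBs and not in an inner ear. The lists of peaks, 9 in all, were called on merged replicates. The lists hold no value per replicate, and no test between lines could be made from them, so every comparison below is a description of the lists. Lists from the same line were called against the same inputs. Where 4 values of a factor are given in a row, those of Atoh1 are in the order iAtoh1, iG+A, iP+A, iGPA and those of Pou4f3 in the order iPou4f3, iG+P, iP+A, iGPA.

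Wnt ligands are secreted lipid-modified proteins that bind a Frizzled receptor together with Lrp5 or Lrp6. In the canonical branch this stops the destruction complex, of which Axin1 and Axin2 are scaffolds, from degrading β-catenin, which then acts with TCF/LEF proteins at target genes. Axin2 and Nkd1 are themselves pathway targets and dampen the signal, Dkk1 and the Sfrp proteins block it outside the cell, and Lgr4, Lgr5 and Lgr6 bind R-spondins, which raise the level of Frizzled at the cell surface. In the cochlea Lgr5 and Lgr6 mark supporting cells from which hair cells can arise, and Fzd3, Fzd6 and Wnt5a act in the planar polarity of hair bundles. Atoh1 is the basic helix-loop-helix factor required for hair cells, which recognises E-boxes, Pou4f3 is a POU-homeodomain factor needed for hair cell survival, and Gfi1 is a zinc-finger repressor.

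The sequences under the sites that the results turn on are shown first. Each is from the plus strand of mm9, 5′ to 3′, centred on the summit or, for Wnt10a and Lgr6, on the joined windows of the summits of the factors named. A number of lists is that of the whole joined site (described below). Such a site can be longer than the window shown, and at Axin2 the window holds the Gfi1 summit only. Capitals mark matches to an E-box core (the letters CAGCTG, or CAGATG, which reads CATCTG on the other strand, or else CATATG), to the Pou4f pattern ATAATTAAT with at most 1 mismatch, to the Gfi1 patterns AATCACTGC or AATCACAGC, or to the TCF/LEF pattern CTTTGAT, each searched on both strands. The Wnt10a, Wnt4 and Lgr6 sites and the upstream sites of Wnt11 and Axin2 were taken by a rule (outside exons, and with the Wnt8a site left out though its Gfi1 enrichment was higher than that of Wnt10a, the highest fold enrichment in an iGPA list, presence in 7 or more lists, or Atoh1 and Pou4f3 together in iGPA with the highest summed fold), whereas those of Sfrp1, Fzd6, Lrp5 and the downstream Wnt11 site were chosen after their values were seen.
Wnt10a intron, chr1:74844185-74844329, the highest enrichment of all, Atoh1 and Gfi1: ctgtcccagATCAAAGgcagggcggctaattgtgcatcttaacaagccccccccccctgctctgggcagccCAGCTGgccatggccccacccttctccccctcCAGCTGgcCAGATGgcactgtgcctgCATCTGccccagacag
Lgr6 intron, chr1:136950938-136951080, in 7 lists, Pou4f3 and Atoh1: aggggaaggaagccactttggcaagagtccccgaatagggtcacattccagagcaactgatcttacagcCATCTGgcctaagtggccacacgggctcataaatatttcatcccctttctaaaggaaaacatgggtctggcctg
Wnt11 upstream, chr7:105963867-105963967, in 8 lists, Atoh1 summit in iGPA: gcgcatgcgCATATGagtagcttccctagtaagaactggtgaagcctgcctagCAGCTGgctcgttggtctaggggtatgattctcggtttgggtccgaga
Wnt11 downstream, chr7:106005862-106005962, Atoh1 summit in iP+A: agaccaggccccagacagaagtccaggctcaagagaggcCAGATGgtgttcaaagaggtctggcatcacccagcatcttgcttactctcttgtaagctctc
Axin2 upstream, chr11:108781409-108781509, in 7 lists, Gfi1 summit: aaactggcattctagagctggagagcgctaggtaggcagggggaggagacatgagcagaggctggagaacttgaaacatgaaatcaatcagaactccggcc
Wnt4 upstream, chr4:136830963-136831063, highest Pou4f3 enrichment in iGPA: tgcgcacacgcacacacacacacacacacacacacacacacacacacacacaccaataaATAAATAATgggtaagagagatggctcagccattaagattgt
Sfrp1 intron, chr8:24548685-24548785, Pou4f3 summit in iG+P: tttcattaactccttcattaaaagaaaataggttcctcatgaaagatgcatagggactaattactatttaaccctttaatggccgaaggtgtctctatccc
Fzd6 intron, chr15:38856888-38856988, Atoh1 summit in iGPA, Pou4f3 also present: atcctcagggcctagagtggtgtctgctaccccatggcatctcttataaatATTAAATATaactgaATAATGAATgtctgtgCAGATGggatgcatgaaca
Lrp5 intron, chr19:3641962-3642062, Atoh1 summit in iGPA, Pou4f3 also present: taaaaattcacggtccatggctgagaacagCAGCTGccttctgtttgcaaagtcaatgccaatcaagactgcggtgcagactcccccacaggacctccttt

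Most Wnt pathway genes had a peak of both Atoh1 and Pou4f3. In every list the share with a peak was above that of all genes, from 39.0% beside 37.7% for Atoh1 in iAtoh1 to 75.6% beside 59.5% for Pou4f3 in iG+P. The intervals of these shares, described below, included the share of all genes in every list but that of iG+P. Of the 41 genes, 37 had a peak in at least 1 list (82.1% of all protein-coding genes did), 29 in both kinds of list (59.6% of all genes), 2 in Atoh1 lists only (10.2%) and 6 in Pou4f3 lists only (12.0%). The 4 genes with no kept peak in any list, where 17.9% of all genes had none, were the ligands Wnt2, Wnt7a and Wnt16 and the secreted protein Dkk3, and none of them had a called peak that the authors had left out either.

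In the iAtoh1 list 16 of the 41 genes had an Atoh1 peak, 39.0% against 37.7% of all genes. The number was 23 of 41 in iG+A, where 50.9% of all genes had one, and also 23 with Pou4f3 (iP+A), against 47.0%. In iGPA it was 28, or 68.3% (95% exact binomial interval 51.9 to 81.9%, which covers counting error only), against 59.1% of all genes. Pou4f3 peaks were found at 24 genes in iPou4f3, where the share of all genes was 56.9%, at 31 in iG+P, against 59.5%, at 23 in iP+A, against 41.7%, and at 20 in iGPA, against 44.4%. Gfi1 peaks in iGPA were at 9 genes, against 14.7% of all genes. The interval of the Wnt pathway share included the share of all genes in 8 of the 9 lists, and in the iG+P list its lower end, 59.7%, lay just above it. In the iG+P list, cut to its strongest 15568 peaks, as many as the shortest Atoh1 or Pou4f3 list holds, 14 genes had a peak, 34.1% (interval 20.1 to 50.6%), beside 37.5% of all genes under the same cut.

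Longer genes offer a larger target, so the count was repeated in windows of the same size for every gene, 20 kb to each side of its annotated 5′ end, a choice made after the data were seen. Atoh1 peaks were then at 13 genes with iAtoh1 (28.2% of all genes), 18 with iG+A (41.0%), 21 with iP+A (36.8%) and 24 with iGPA (48.9%). Pou4f3 peaks were at 20 genes with iPou4f3 (46.5% of all genes), 26 with iG+P (47.5%), 19 with iP+A (31.1%) and 13 with iGPA (31.9%), and Gfi1 peaks at 8 (10.8%). Every interval of the Wnt pathway share then included the share of all genes.

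**Figure D1:**
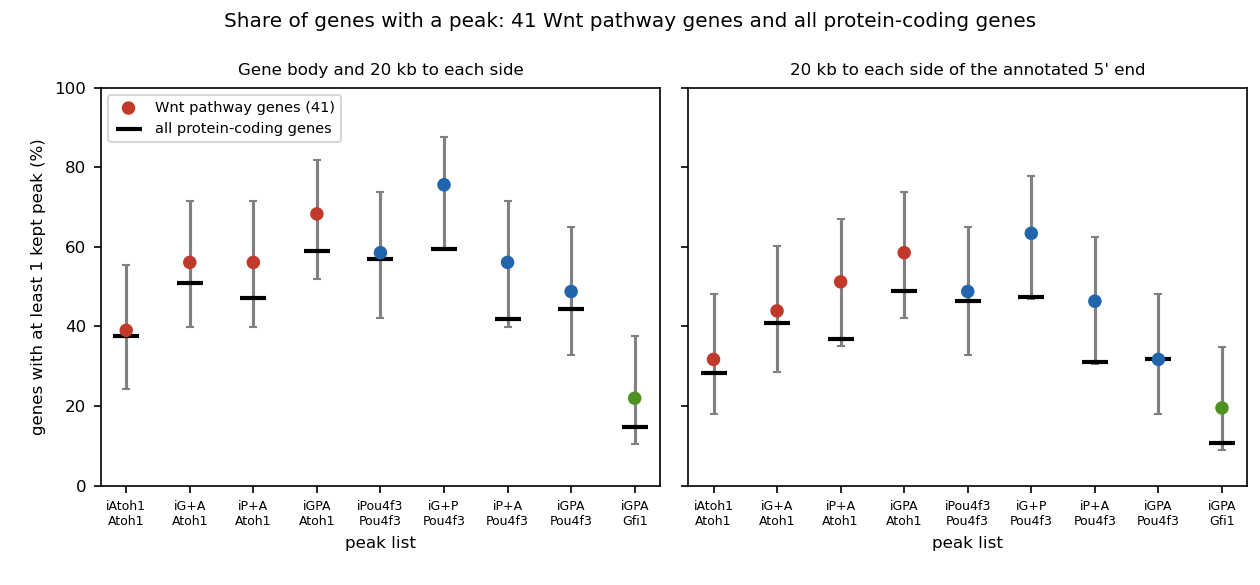
Share of genes (%) with at least 1 kept peak in each of the 9 lists, for the 41 Wnt pathway genes (dots, red for Atoh1, blue for Pou4f3, green for Gfi1, with 95% exact binomial intervals that cover counting error only) and for all 22380 protein-coding genes (black bars), with the gene body and 20 kb to each side on the left and 20 kb to each side of the 5′ end on the right. The bars of all genes lie inside the intervals except for iG+P on the left, where 59.5% lies just under the lower end of 59.7%.

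The number of peaks differed more than the number of genes. The 41 windows spanned 3.04 Mb in all and held 24 Atoh1 peaks with Atoh1 alone, 38 with Gfi1 added (iG+A), 39 with Pou4f3 added (iP+A) and 72 with both added (iGPA). Per 100 kb this was 0.791, 1.25, 1.29 and 2.37 peaks, beside 0.803, 1.12, 0.994 and 1.45 in the windows of all protein-coding genes. For Pou4f3 there were 44, 53, 33 and 31 peaks, in the order of lines given above, or 1.45, 1.75, 1.09 and 1.02 per 100 kb beside 1.19, 1.64, 0.850 and 0.912. For Gfi1 there were 9, or 0.297 per 100 kb beside 0.169. The density at Wnt pathway genes was thus above that of all genes in every list but that of iAtoh1. Several of these densities lay close to those of all genes, as with 1.75 beside 1.64 for Pou4f3 in iG+P and 1.02 beside 0.912 in iGPA. No interval was computed for them. Between iAtoh1 and iGPA, 23 of the 41 genes gained Atoh1 peaks, 1 lost and 17 had as many, where 45.0% of all genes gained. Between iPou4f3 and iGPA, 7 genes had more Pou4f3 peaks, where 11.9% of all genes did, and 16 had fewer, where 34.3% did. The lists themselves differed in length, from 15568 kept Atoh1 peaks in iAtoh1 to 26231 in iGPA, and the part of library depth in these counts was not tested.

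**Figure D2:**
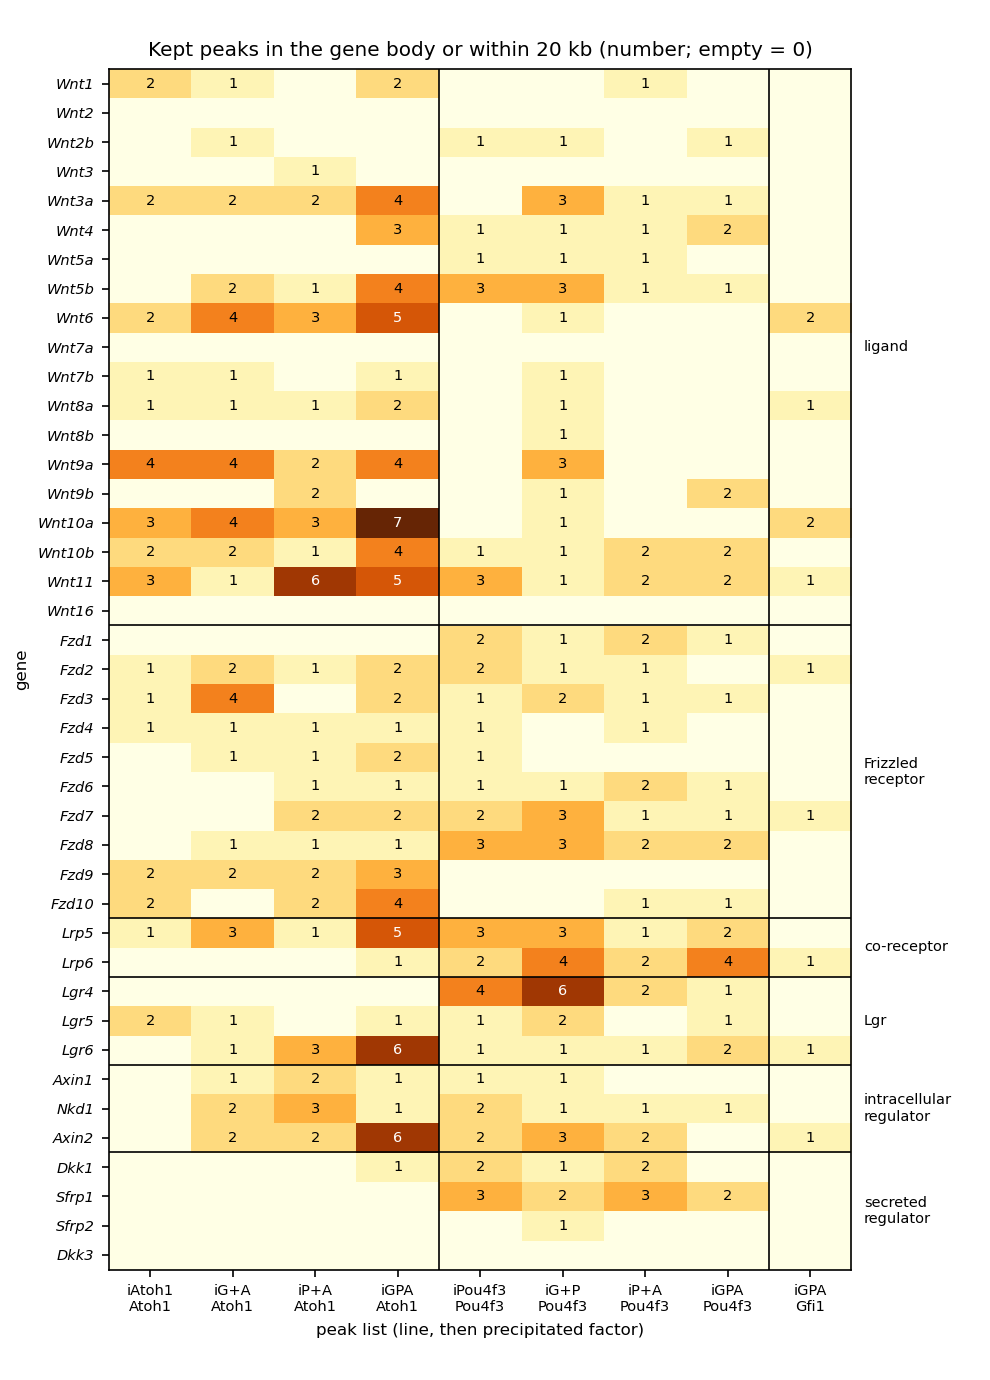
Number of kept peaks in the gene body or within 20 kb for each of the 41 genes (rows, grouped by role) in each of the 9 lists (columns, grouped by precipitated factor), where an empty field is 0. Wnt10a, Axin2 and Lgr6 hold 7, 6 and 6 Atoh1 peaks in iGPA, and Sfrp1 and Lgr4 have Pou4f3 peaks in each of 4 lists and no Atoh1 peak.

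When peaks were joined into sites (300 bp windows around the summits sharing at least 1 bp), the 41 genes had 156 sites. Of these, 72 were in Atoh1 lists only, 58 in Pou4f3 lists only and 21 in both kinds, and 9 held a Gfi1 peak. Sites in Atoh1 lists only were 46.2% beside 37.5% of all sites, and those in Pou4f3 lists only 37.2% beside 41.8%. Sites with Gfi1 were 5.8% beside 3.8%. Both kinds were present at 13.5% of the sites (interval 8.53 to 19.8%), beside 18.2% of all 78408 sites in the genome. A single list held 70 of the 156 sites (44.9%, beside 46.9% of all sites), and 3 sites were in 7 or more lists (1.9%, beside 1.2%). By position 52 sites were in introns, 39 upstream of the gene, 37 downstream, 15 in untranslated regions and 13 in coding exons. The nearest protein-coding transcription start belonged to 1 of the 41 genes at 122 sites, and 13 sites lay in the windows of a pair of neighbouring ligand genes at once, as with Wnt6 and Wnt10a or Wnt3a and Wnt9a, and were counted for both.

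Among the ligands, Wnt11, Wnt10a, Wnt9a, Wnt5b and Wnt6 held the most sites, 7 to 9 each, and Wnt10a, Wnt11, Wnt6 and Wnt9a the most Atoh1 peaks, 14 to 17 each. The highest enrichment at any Wnt pathway gene was the site in an intron of Wnt10a, a ligand of the canonical branch, 6.2 kb from its 5′ end, which also lies in the 20 kb flank of Wnt6. Atoh1 fold enrichment there (ChIP fragments over local background at the summit, as the peak caller gave it, a value that also depends on the depth of the merged libraries, whose part was not tested) was 10.4 for iAtoh1, 14.6 for iG+A, 9.36 for iP+A and 29.0 for iGPA. Among the peaks of each list it ranked 111th, 89th, 290th and 40th by fold, so it was near the top in all 4 lists. Gfi1 was enriched 6.16-fold at the same site and Pou4f3 had no kept peak. The sequence shown above holds 4 E-box cores and 1 TCF/LEF match (ATCAAAG, the other strand of CTTTGAT). Wnt10a had 8 sites and 17 Atoh1 peaks in all, against a single Pou4f3 peak, and a further site 11.7 kb from its 5′ end was in the 4 Atoh1 lists at 3.79-, 4.41-, 4.52- and 5.60-fold. Of the Atoh1 lists, iGPA gave the highest value at both sites. Wnt6, its neighbour, shared 6 of its 7 sites with Wnt10a, and a Gfi1 peak of 4.62-fold lay 116 bp upstream of its start with no other factor.

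Wnt11, a ligand mostly of the non-canonical branch, had 9 sites, the most of all, and was the only one of the 41 genes with a peak in all 9 lists. Its downstream site, 22.3 kb from the 5′ end, carried the highest Atoh1 enrichment in iP+A, 13.7-fold, beside 6.47 in iAtoh1 and 3.32 in iGPA, and no kept peak in iG+A. Pou4f3 was enriched there 4.01-fold in iPou4f3, 4.98-fold in iP+A and 3.20-fold in iGPA. By fold this peak ranked 76th in the iP+A list, 558th in the iAtoh1 list and 14234th in the iGPA list, so its place differed between the lines with Pou4f3 alone and with both partners. The other Wnt11 site was 19.7 kb upstream and in 8 lists, with Atoh1 at 3.42-, 4.14-, 3.77- and 7.14-fold, Pou4f3 at 2.25-, 3.28- and 3.35-fold in all its lists but that of iP+A, and Gfi1 at 4.18-fold. The joined site was 756 bp long, and its Pou4f3 summits lay to the Wnt11 side of the Atoh1 summits. In the RefSeq annotation of GRCm38.p6, used for neighbours only, the tRNA genes n-TPtgg8 and n-TPagg7 are neighbours of Wnt11. Whether a summit of this upstream site lies on either tRNA gene, and their part in these peaks, was not tested.

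Wnt9a, with 8 sites, had Atoh1 peaks in all 4 lists, 4, 4, 2 and 4 in number, and Pou4f3 peaks in iG+P only. An intronic site 1.4 kb into the gene was in the 4 Atoh1 lists at 2.56-, 3.74-, 2.90- and 5.91-fold. Wnt5b, a non-canonical ligand, also had 8 sites, 7 Atoh1 peaks and 8 Pou4f3 peaks, and its highest values were 5.39-fold for Pou4f3 in iGPA and 4.55-fold for Atoh1 in iGPA. Among its sites 4 intronic ones lay nearer to the start of Fbxl14 than to its own.

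Wnt4 carried the highest Pou4f3 enrichment of the 41 genes in the iP+A and iGPA lists, whereas in iPou4f3 and iG+P that of Sfrp1 was higher. At Wnt4 it was 6.18 with Pou4f3 alone, 4.92 with Gfi1 added, 5.55 with Atoh1 added and 11.9 with both added, at 2.4 kb upstream of the gene, and no list had Atoh1 there. The summit lies at the end of a run of CA repeats, which is followed by a Pou4f match with 1 mismatch (ATAAATAAT). Atoh1 peaks at Wnt4 were in iGPA only, at 3 other sites, of which an intronic one reached 5.28-fold. Wnt8a, a ligand of early embryos, had a site 19.2 kb downstream in the 4 Atoh1 lists (5.62-, 3.20-, 3.77- and 4.80-fold) and with the highest Gfi1 enrichment of the 41 genes, 7.48-fold, although the nearest start there was that of Nme5. Wnt5a had 3 Pou4f3 peaks at 3 sites, each in a different list, at 2.62-, 2.30- and 2.60-fold in iPou4f3, iG+P and iP+A, and no Atoh1 peak, all under the median fold of those lists, 3.33, 2.96 and 3.17. Wnt10b had 6 sites, of which one 14.9 kb downstream, nearest to the start of Arf3, was in all 4 Pou4f3 lists (4.04-, 2.44-, 3.28- and 4.81-fold) and held Atoh1 in iP+A and iGPA (2.47- and 3.94-fold). Wnt3a, next to Wnt9a, had 5 sites with 10 Atoh1 and 5 Pou4f3 peaks. Wnt1, Wnt2b, Wnt7b and Wnt9b had 2 to 4 sites each, and Wnt3 (Atoh1 in iP+A) and Wnt8b (Pou4f3 in iG+P) had 1.

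**Figure D3:**
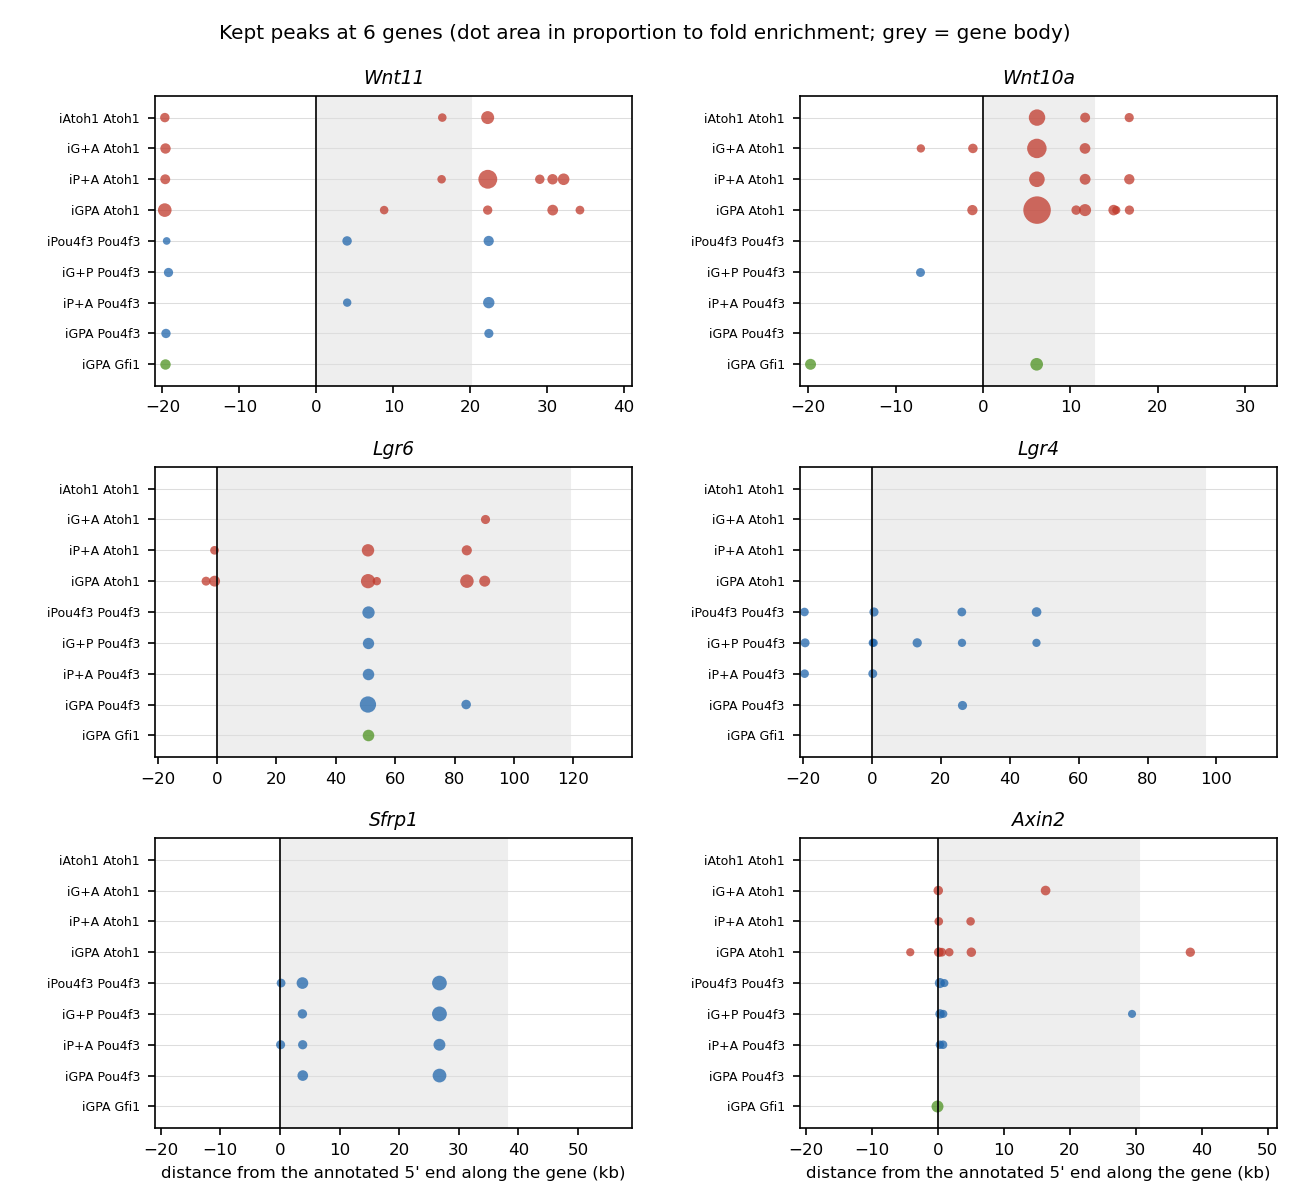
Kept peaks at Wnt11, Wnt10a, Lgr6, Lgr4, Sfrp1 and Axin2 in each of the 9 lists (rows) by distance in kb from the annotated 5′ end in the direction of transcription, with the gene body in grey and dot area in proportion to fold enrichment (red Atoh1, blue Pou4f3, green Gfi1). The largest dot is the 29.0-fold Atoh1 peak in the Wnt10a intron in iGPA, and the Lgr4 and Sfrp1 panels hold Pou4f3 peaks only.

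All 10 Frizzled receptor genes had a peak in at least 1 list, where 82.1% of all genes did. Most had both factors, but Fzd9 had 9 Atoh1 peaks at 3 sites and no Pou4f3 peak, and Fzd1 had 6 Pou4f3 peaks at 4 sites and no Atoh1 peak. At Fzd9 the strongest site was in an untranslated region 2.1 kb from the 5′ end, at 3.67-, 2.94-, 2.69- and 6.77-fold. At Fzd1 a site 15.3 kb upstream gave Pou4f3 values of 3.72, 3.17 and 6.12 in the 3 lines with partners, and none in iPou4f3.

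Fzd2 had the most sites of the Frizzled genes, 6, of which the strongest, 19.9 kb downstream, was in the 4 Atoh1 lists at 4.52-, 4.67-, 6.99- and 7.14-fold with no Pou4f3. A Gfi1 peak of 5.06-fold lay alone 8.8 kb upstream of Fzd2 and held both an E-box core and a TCF/LEF match. Fzd7, with 5 sites, had a Gfi1 peak of 3.19-fold in its coding exon together with Atoh1 in iP+A and iGPA (2.90- and 5.17-fold). Fzd8, with 5 sites, was bound mainly by Pou4f3, which was found in all 4 lists at 732 bp upstream (4.24-, 3.69-, 3.28- and 5.41-fold) and 15.4 kb downstream (4.04-, 3.94-, 3.85- and 6.41-fold). Fzd4 and Fzd5 had 2 and 3 sites, none above 3.80-fold. Fzd10 had 5 sites and 8 Atoh1 peaks. Its highest value, 7.75-fold in iGPA, was at a site 6.0 kb from the 5′ end where Atoh1 in iP+A was 3.98 and Pou4f3 in iP+A and iGPA was 2.60 and 3.20.

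Fzd6 and Fzd3, the Frizzled genes known from hair bundle polarity, differed in their sites. Fzd6 had an intronic site 19.0 kb into the gene with Atoh1 at 3.12- and 4.07-fold and Pou4f3 at 3.85- and 5.19-fold in iP+A and iGPA, and neither factor in a line that carried only 1 of them. Its sequence above holds 2 Pou4f matches and 1 E-box core within the window. Fzd3 had a Pou4f3 site 281 bp into the gene in all 4 Pou4f3 lists (3.14-, 2.63-, 3.28- and 3.35-fold). Its other 4 sites, all with Atoh1, lay upstream and nearer to the start of Fbxo16, with the highest value 6.12-fold in iGPA.

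The co-receptors differed from each other. Lrp5 had 10 Atoh1 and 9 Pou4f3 peaks at 8 sites, and Lrp6 had 1 Atoh1 peak, in iGPA, and 12 Pou4f3 peaks at 4 sites. The Lrp5 counts include sites 110.4 and 111.1 kb from its 5′ end, near the start of the neighbouring gene Ppp6r3. Atoh1 summits of iG+A and iGPA lay 434 and 417 bp from that start, and Pou4f3 summits of iPou4f3 236 and 551 bp. Lrp5 sites at 55.9 and 114.5 kb were also nearest to the Ppp6r3 start. At Lrp5 the strongest site was the intronic one shown above, 44.6 kb into the gene, where Atoh1 was 5.38 in iP+A and 8.00 in iGPA, and Pou4f3 was 2.72 and 5.24 in the same lines. At Lrp6 the strongest site lay at the promoter, 52 bp upstream, with Pou4f3 at 5.47-, 3.28-, 4.64- and 3.35-fold, Atoh1 at 2.83-fold in iGPA and Gfi1 at 3.96-fold. A Pou4f3 site in an Lrp6 intron, 30.3 kb into the gene, was also in all 4 Pou4f3 lists, at 3.45-, 3.17-, 3.06- and 4.81-fold.

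The 3 Lgr genes also differed from each other. Lgr4 had 13 Pou4f3 peaks at 5 sites in a window of 137.0 kb and no Atoh1 peak in any list, with values of 2.52- to 3.57-fold. Lgr6 had 10 Atoh1 peaks, 0, 1, 3 and 6 in the 4 lists. Its intronic site 50.8 kb into the gene was in 7 lists. Pou4f3 was enriched there 5.82-, 4.92-, 5.09- and 10.2-fold in its 4 lists, Gfi1 was 5.15-fold, and Atoh1 was 5.92-fold in iP+A and 7.84-fold in iGPA. Atoh1 was thus present in the lines that carried Pou4f3 and not in iAtoh1 or iG+A. The window of 143 bases shown above holds 1 E-box core and no match to the Pou4f or Gfi1 pattern. A further intronic Lgr6 site, 84.2 kb into the gene, had the same distribution for Atoh1, at 3.98-fold in iP+A and 7.02-fold in iGPA, with Pou4f3 at 3.50-fold in iGPA. Its Atoh1 summits in iP+A and iGPA lay 943 and 992 bp from an internal annotated start of Lgr6. Lgr5 had 7 sites, with values between 2.56- and 3.79-fold. Its pair of iAtoh1 sites lay in short tandem repeats, defined as at least 80% of the 100 bases at the summit being identical to the base 1 repeat unit further on, for units of up to 12 bases. No other site of the 156 met this definition, and the Wnt4 site beside a CA run fell short of it. Of the 7 Lgr5 sites, 5 were nearest to the start of another gene model, RP23-43M12.1, inside Lgr5. Only its iG+A and iGPA Atoh1 peaks, at 3.20- and 3.45-fold, were nearest to an Lgr5 start.

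Of the intracellular regulators, none had an Atoh1 peak in iAtoh1, and all 3 had one in iG+A, iP+A and iGPA. In these lists 37.7, 50.9, 47.0 and 59.1% of all genes had one. The only Atoh1 peaks of Axin1 in iG+A and iGPA lay downstream of it, 85 and 42 bp from the start of Arhgdig. Axin2, a direct target of the canonical pathway, had 2, 2 and 6 Atoh1 peaks in iG+A, iP+A and iGPA. Its promoter region carried peaks of 7 lists that joined into 1 site of 1478 bp, so the summits were not at 1 place. Gfi1, at 5.50-fold, lay 204 bp upstream of the 5′ end, Atoh1 lay 42, 119 and 122 bp downstream of it in iG+A, iP+A and iGPA at 3.47-, 2.86- and 3.57-fold, and the stronger of the 2 Pou4f3 peaks of each list lay 286, 308 and 763 bp downstream at 3.92-, 3.39- and 2.83-fold in iPou4f3, iG+P and iP+A. Pou4f3 had no kept peak at Axin2 in iGPA. The 251 bases around those 3 Atoh1 summits held a TCF/LEF match and no E-box core. Nkd1, with 6 sites, had a Pou4f3 site in all 4 Pou4f3 lists 3.2 kb upstream, at 3.69-, 2.85-, 3.17- and 4.37-fold. Its Atoh1 peaks, 2, 3 and 1 in number, reached at most 3.87-fold.

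Of the 4 secreted regulators, 0, 0, 0 and 1 had an Atoh1 peak in iAtoh1, iG+A, iP+A and iGPA. In the same lists 37.7, 50.9, 47.0 and 59.1% of all genes had one. Sfrp1, Sfrp2 and Dkk3 had no Atoh1 peak in any list, and Dkk1 had 1, of 2.58-fold in iGPA at its promoter. Sfrp1 had 10 Pou4f3 peaks at 3 sites. The strongest was the intronic site shown above, 26.8 kb into the gene, with 8.32-, 8.43-, 5.43- and 7.28-fold, the highest value of any Wnt pathway gene in the iPou4f3 and iG+P lists. No Pou4f match lay in its window. Dkk1 had Pou4f3 at the promoter site at 3.69-, 3.17- and 3.06-fold in iPou4f3, iG+P and iP+A and none in iGPA.

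**Figure D4:**
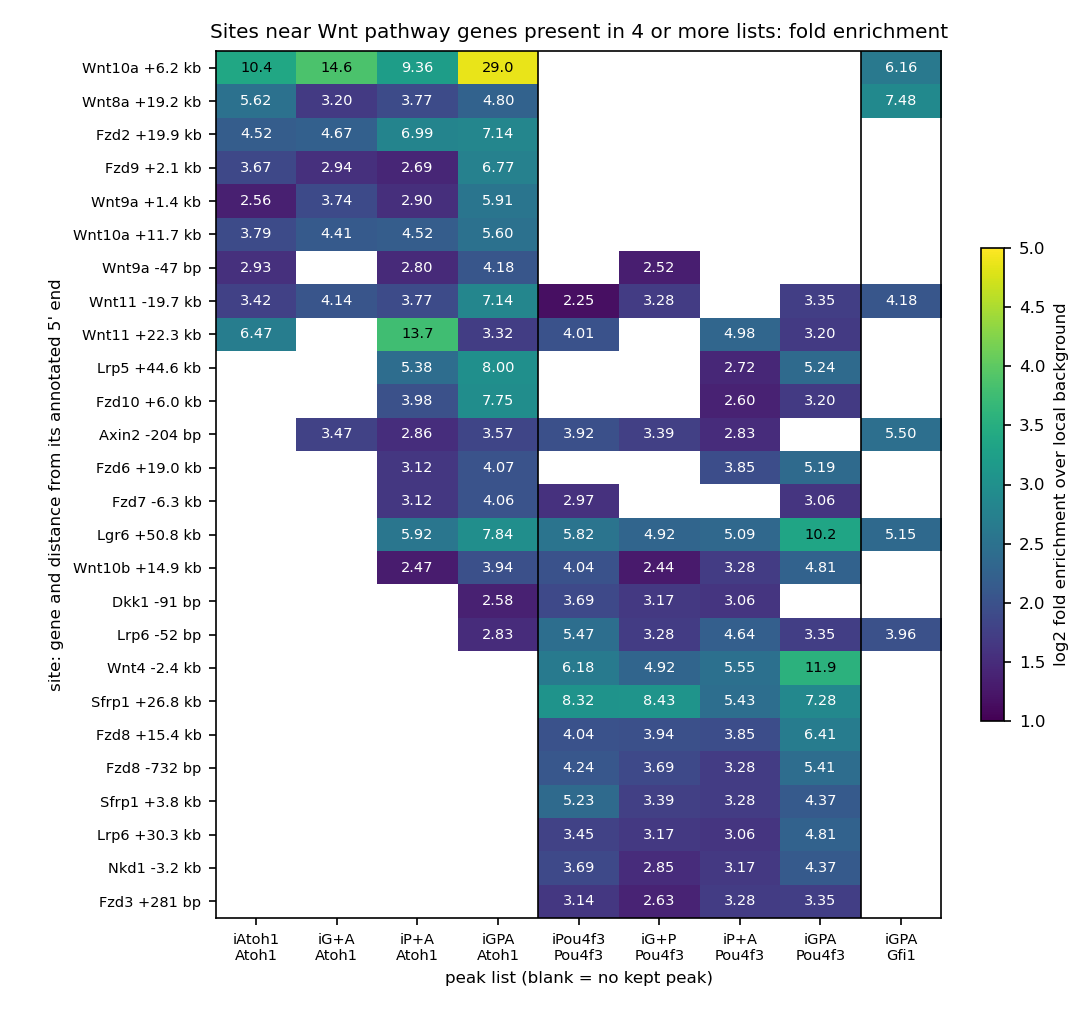
Fold enrichment over local background of the 26 sites near Wnt pathway genes that were present in 4 or more lists (rows, with the distance from the 5′ end of the gene) in each list (columns, blank where there was no kept peak), coloured on a log2 scale. From the top, sites with Atoh1 only give way to sites with both factors and then to sites with Pou4f3 only. At Lrp5, Fzd10, Fzd6, Fzd7, Lgr6 and Wnt10b, Atoh1 is in iP+A and iGPA and not in iAtoh1 or iG+A.

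Sites at which Atoh1 was found in iP+A and iGPA but not in iAtoh1 or iG+A numbered 16, and 7 of them also had a Pou4f3 peak in some list: those at Lgr6 (2), Fzd6, Fzd7, Fzd10, Lrp5 and Wnt10b. The share with Pou4f3 in some list, 43.8% (interval 19.8 to 70.1%), compares with 61.2% of the 3542 sites of this kind in the genome. In 3 of the 7, at Fzd7, Lgr6 and Wnt10b, Pou4f3 was also present in iPou4f3 or iG+P. These were 18.8% of the 16 sites (interval 4.05 to 45.7%), beside 39.7% of the 3542. Among sites with Atoh1 in iAtoh1 or iG+A, 9 of 48 had a Pou4f3 peak in some list, 18.8% (8.95 to 32.6%), beside 31.1% of all such sites. Atoh1 sites in iG+A and iGPA but not in iAtoh1 or iP+A numbered 9, of which 2 had a Pou4f3 peak, beside 20.7% of all such sites.

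Of the 24 Atoh1 sites of iAtoh1, 17 were also in iGPA, 70.8% (48.9 to 87.4%), beside 54.3% of all iAtoh1 sites. Of the 69 Atoh1 sites of iGPA, these 17 made up 24.6%, beside 31.95% of all iGPA Atoh1 sites. A further 25 were in no other Atoh1 list, 36.2% beside 36.2%. Within iGPA, whose lists share inputs, 10 of the 69 Atoh1 sites also held Pou4f3 (14.5%, interval 7.18 to 25.0%, beside 16.0% of all iGPA Atoh1 sites). Of the 9 Gfi1 sites 7 held Atoh1 (77.8%, interval 40.0 to 97.2%, beside 45.2% of all Gfi1 sites) and 3 held Pou4f3 (33.3%, beside 25.0%). The 2 without Atoh1 were those upstream of Wnt6 and of Fzd2. At Axin2, counted among the 7, the Gfi1 summit lay 204 bp upstream of the 5′ end and the nearest iGPA Atoh1 summit 122 bp downstream. Their own windows did not overlap there and were joined through the iG+A Atoh1 peak. All 4 Atoh1 lists held 7 of the 96 Atoh1 sites, 7.29% beside 10.8% in the genome, and all 4 Pou4f3 lists held 11 of the 79 Pou4f3 sites, 13.9% beside 14.8%. By gene, 11 of the 41 had Atoh1 in all 4 lists, where 27.3% of all genes did, and 15 had Pou4f3 in all 4, where 29.5% did.

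The share of peaks near transcription starts differed between the 2 factors most in the lines with 1 factor alone, and in iGPA it was higher for Atoh1 than for Pou4f3. Of the 44 Pou4f3 peaks of iPou4f3, 26 (59.1%) were within 1 kb of a protein-coding start of any gene, beside 28.0% of that whole list and 37.7% of its peaks in the windows of all genes. With partners the share was 41.5% (iG+P), 48.5% (iP+A) and 25.8% (iGPA), beside 16.2, 19.1 and 11.9% of the lists. For Atoh1 it was 16.7, 36.8, 28.2 and 31.9%, beside 18.2, 24.6, 23.0 and 25.2%. Not all of these starts were those of Wnt pathway genes. The nearest start was that of 1 of the 41 genes for 20 of the 26 Pou4f3 peaks of iPou4f3, and for 17 of 22, 14 of 16 and 5 of 8 with partners. For Atoh1 this held for 2 of 4, 6 of 14, 8 of 11 and 15 of 23 peaks. As a share of all peaks near Wnt pathway genes, those within 1 kb of such a start were 45.5% of the Pou4f3 peaks of iPou4f3 and 8.33% of the Atoh1 peaks of iAtoh1. In iGPA they were 16.1% of the Pou4f3 peaks and 20.8% of the Atoh1 peaks.

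Matches to the factors' patterns were counted separately near to and away from starts. Among Pou4f3 peaks farther than 1 kb from a start, a Pou4f match lay within the 251 bases around the summit in 9 of 18, 16 of 31, 9 of 17 and 12 of 23 peaks, beside 54.9, 47.5, 46.6 and 58.9% of such peaks in the whole lists. Within 1 kb of a start it lay in 1 of 26, 0 of 22, 1 of 16 and 1 of 8, and in 8.84, 13.4, 12.1 and 22.3% of such peaks in the lists. For Atoh1, an E-box core was found at 18 of 20, 22 of 24, 28 of 28 and 46 of 49 peaks farther than 1 kb from a start, beside 61.5, 68.6, 68.4 and 79.4% of such peaks in the lists. Within 1 kb of a start it was found at 3 of 4, 6 of 14, 6 of 11 and 14 of 23, beside 69.5, 55.6, 60.6 and 62.7%. E-box cores were thus more frequent in the Atoh1 peaks of Wnt pathway genes than in the lists away from starts, and not near them except in the 4 peaks of iAtoh1. In the whole iAtoh1 list they were more frequent near starts than away, and in the other 3 lists less frequent. The TCF/LEF pattern was in 2 of 24, 5 of 38, 4 of 39 and 4 of 72 Atoh1 peaks (8.33, 13.2, 10.3 and 5.56%, beside 3.88, 3.28, 3.72 and 2.92% of the lists) and in 3 of 9 Gfi1 peaks (33.3% beside 7.30%). These matches came from few sites and recurred between lists. The intronic Wnt10a site and the downstream Wnt8a site held one in all 4 Atoh1 lists and in the Gfi1 list. The Axin2 promoter site held one in iG+A, iP+A and iGPA. No interval was computed for these shares. In Pou4f3 peaks the TCF/LEF pattern was in 1 of 44, 1 of 53, 0 of 33 and 0 of 31, beside 3.40, 4.01, 3.96 and 3.54% of the lists. The Gfi1 patterns were in none of the 9 Gfi1 peaks, in a list where 7.04% held one.

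**Figure D5:**
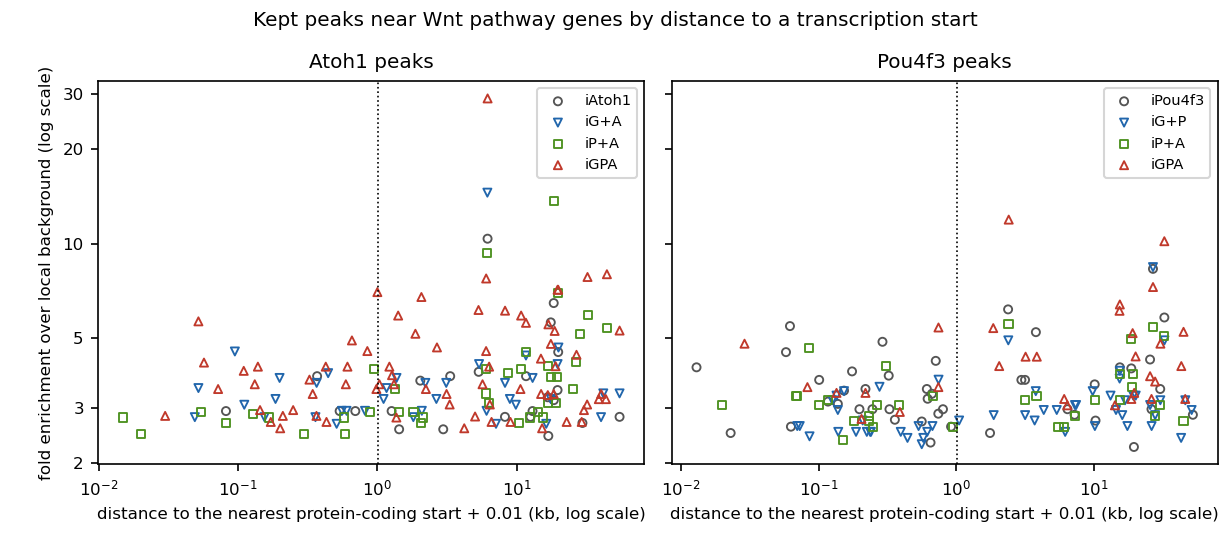
Fold enrichment over local background (log scale) of the kept Atoh1 peaks (left) and Pou4f3 peaks (right) near Wnt pathway genes by distance to the nearest protein-coding start (kb, log scale, with 0.01 kb added), with a marker for each line and a dotted line at 1 kb. Pou4f3 peaks of iPou4f3 crowd to the left of the line, 26 of 44, and the highest values of both factors, 29.0 and 11.9, lie to its right.

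The median fold of the peaks near Wnt pathway genes was close to that of the lists, 3.05 beside 3.18 in iAtoh1, 3.57 beside 3.45 for Atoh1 in iGPA, 3.37 beside 3.33 in iPou4f3, 4.08 beside 4.08 for Pou4f3 in iGPA and 5.06 beside 4.40 for Gfi1. The strongest sites named above were therefore not typical of the peaks near these genes.

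Another 53 genes of the pathway, from β-catenin and the destruction complex to TCF/LEF factors, R-spondins and planar polarity proteins, were counted in the same way. A peak was found at 51 of them in at least 1 list, and Porcn and Rspo4 had none. Atoh1 was at 23, 31, 28 and 40 of them in its 4 lists, and Pou4f3 at 41, 41, 23 and 32, while Gfi1 was at 9. In the order of lines used above, the shares with Pou4f3 were 77.4, 77.4, 43.4 and 60.4%, beside 56.9, 59.5, 41.7 and 44.4% of all genes. Those with Atoh1 were 43.4, 58.5, 52.8 and 75.5%, beside 37.7, 50.9, 47.0 and 59.1%. For Gfi1 the 9 of 53 genes compare with 14.7% of all genes. Of the 41 genes, 58.5% had Pou4f3 in iPou4f3. The 53 genes were not counted in windows of equal size, so the part of gene length in these shares was not tested. Tcf7l2, a TCF factor, had 5, 8, 3 and 3 Pou4f3 peaks and 3 Gfi1 peaks, but 1 Atoh1 peak, in iGPA, a distribution chosen for mention after its values were seen.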

How the data were processed

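According to the methods, reads were trimmed (Trimmomatic) and mapped to mm9 (Bowtie 2), and the authors dropped duplicates, poorly mapped reads and reads in blacklisted regions. MACS 2 was then run with the replicates of a ChIP merged and the inputs of its line merged. The deposited lists give the fold enrichment of each peak (a ratio over local background at the summit) and its −log10 p. Deposited summit files name the peaks the authors kept (64.5 to 85.9% of those called, by a filter not given in the sources used here). Read depth is unknown from these files. The genes and lists were chosen with earlier results of these data known.

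Summits were counted in gene bodies of the GENCODE vM1 annotation (mm9) and within 20 kb, and joined to sites with windows of 300 bp. Patterns were searched in 251 bases of the mm9 genome. Shares have Clopper-Pearson 95% intervals, which cover counting error only. Named were the genes with most sites in each role, those with the highest fold in a list, with a site in at least 7 lists, with a Gfi1 peak or with no peak, and Axin2, Lgr5, Lgr6, Fzd3, Fzd6 and Wnt5a. Others named with values were chosen after they were seen. No p-value was computed, since no list carries replicate values. Python 3.11.15, numpy 2.4.6, pandas 2.3.3 and scipy 1.17.1 were used, and counting and joining were tested on simulated peaks.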

Additional observations from a re-analysis of the deposited data

How the results depend on the processing

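No paired analysis was possible because peaks were called on merged replicates, and for the same reason no replicate could be left out. Of 114 recounts under other settings, 89 were within 1.5 times the reported count, and 25 were not. All called peaks, flanks of 50 kb, the nearest start, narrower or wider site windows and full peak intervals moved no count beyond that.

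Raising the threshold to a −log10 p of 10 or more, which leaves fewer peaks by construction, gave lower counts. Genes with an Atoh1 peak fell to 8 in iAtoh1, 7 in iG+A and 9 in iP+A, and genes with a Pou4f3 peak to 15 for iPou4f3, 5 for iG+P, 8 for iP+A and 11 for iGPA. In the order of lines used above, Atoh1 peaks fell to 8, 7, 15 and 34, Pou4f3 peaks to 17, 6, 8 and 16, and Gfi1 peaks to 5. Sites in any list fell to 62, those shared by iAtoh1 and iGPA to 5, those with both factors in iGPA to 4, those in all Atoh1 lists to 3 and those in all Pou4f3 lists to 4. A flank of 5 kb left 8 genes in iAtoh1 and 25 peaks in iG+A. Lists of equal length left 14 genes with Pou4f3 in iG+P, and windows of 20 kb around the 5′ end, added after the data were seen, left 13 in iGPA. The lists have no replicate spread, so small differences between lines cannot be told from variation between libraries.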
